A study of Mus musculus with 2 samples.

Results

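Sinusoidal uptake carriers are the proteins by which hepatocytes take bile acids, organic anions and organic cations out of portal blood. The 9 genes described here were Slc10a1, Slco1a1, Slco1a4, Slco1b2, Slco2a1, Slco2b1, Slc22a3, Slc22a7 and Slc47a1. They were chosen by name and matched to the quantified genes by stable Ensembl identifier. All 9 were found among the 43346 genes listed. The data are polyadenylated RNA of 8-week-old C57BL/6J mouse liver, an inbred strain, sequenced as 2 libraries of 1 group, labelled biological replicates 1 and 2. Each was labelled as pooled from both sexes, no treatment or allele was named, and both carry the same donor label. The sources used here do not say if the replicates were different animals or pools, so every p-value below reflects these 2 samples alone and their spread may be technical.

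Bile acids cycle between liver and gut. The sodium-coupled carrier encoded by Slc10a1 returns conjugated bile acids from sinusoidal blood to the hepatocyte, and sodium-independent organic anion transporting polypeptides, encoded by the Slco genes, take up unconjugated bile acids, bilirubin, hormone conjugates and drugs. Slc22 genes encode carriers of organic cations or anions. Slc47a1 encodes an antiporter that extrudes organic cations in exchange for protons, so it is the member of the set whose known role is export. Inside the cell, bile acids are pumped across the canalicular membrane into bile by ATP-driven exporters.

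Estimated reads came to 60770411 in replicate 1 and 61688916 in replicate 2. Hepatocyte markers were abundant: Alb, encoding serum albumin, stood at 32113 and 34763 TPM, and Trf, encoding transferrin, at 28886 and 22714 TPM. TPM, a relative transcript abundance, divides reads by effective transcript length and scales each library to the same sum. Of 6 kidney markers none reached the 20 reads needed for testing and their summed level was 0.28 and 0.08 TPM. Kap, an androgen-regulated tubule gene, had the highest mean TPM, with 3 and 0 reads. Umod, encoding uromodulin, and Slc34a1, encoding a phosphate carrier, tied for the next place with 7 and 3 reads and with 10 and 3 reads. Endothelial and Kupffer cell markers were present in both libraries at summed levels of 211.1 and 298.83 TPM, and 220.83 and 369.44 TPM. In bulk liver RNA, fewer cells of a type and less RNA per cell cannot be told apart.

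Slc10a1 was the most abundant member. It was measured at 911 TPM in replicate 1 and 1075 TPM in replicate 2 (993 ± 116, SD, n = 2), rank 134 of all genes by mean TPM. It alone gave 67.1% and 69.7% of the summed level of the 9 genes, which was 1357.3 and 1543.0 TPM (1450 ± 131, SD, n = 2), or 0.136% and 0.154% of all TPM. The next 3 members were close to each other. Slc47a1 stood at 137 and 130 TPM (134 ± 5.11, SD, n = 2). Slco2b1, a carrier of sulfated steroids and drugs, stood at 115 TPM in both libraries (115 ± 0.615, SD, n = 2). Slco1b2, the mouse liver-type polypeptide for bilirubin and bile acids, stood at 104 and 106 TPM (105 ± 1.22, SD, n = 2). These ranges did not overlap, so the order Slc47a1, Slco2b1, Slco1b2 was the same in both libraries.

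A second tier lay below 50 TPM. Slco2a1, the prostaglandin transporter, was at 36.3 and 47.9 TPM (42.1 ± 8.20, SD, n = 2), and Slc22a7, an organic anion carrier, at 36.6 and 37.0 TPM (36.8 ± 0.290, SD, n = 2). Their ranges overlapped and their order differed between the libraries. Slco1a4, a carrier of bile acids and digoxin, was at 9.29 and 19.6 TPM (14.4 ± 7.29, SD, n = 2). Slco1a1, a carrier of bile acids and sulfated steroids, was at 3.28 and 10.99 TPM (7.14 ± 5.45, SD, n = 2). Slc22a3, an organic cation carrier of wide tissue distribution, was lowest at 3.63 and 2.13 TPM (2.88 ± 1.06, SD, n = 2). Slco1a4 and Slco1a1 overlapped across libraries, as did Slco1a1 and Slc22a3, so the order of these neighbours is not set beyond their spread. Of the 8 neighbouring pairs in the order 5 did not overlap. The means spanned 345-fold, and all 9 genes stood above 1 TPM in both libraries.

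**Figure D1:**
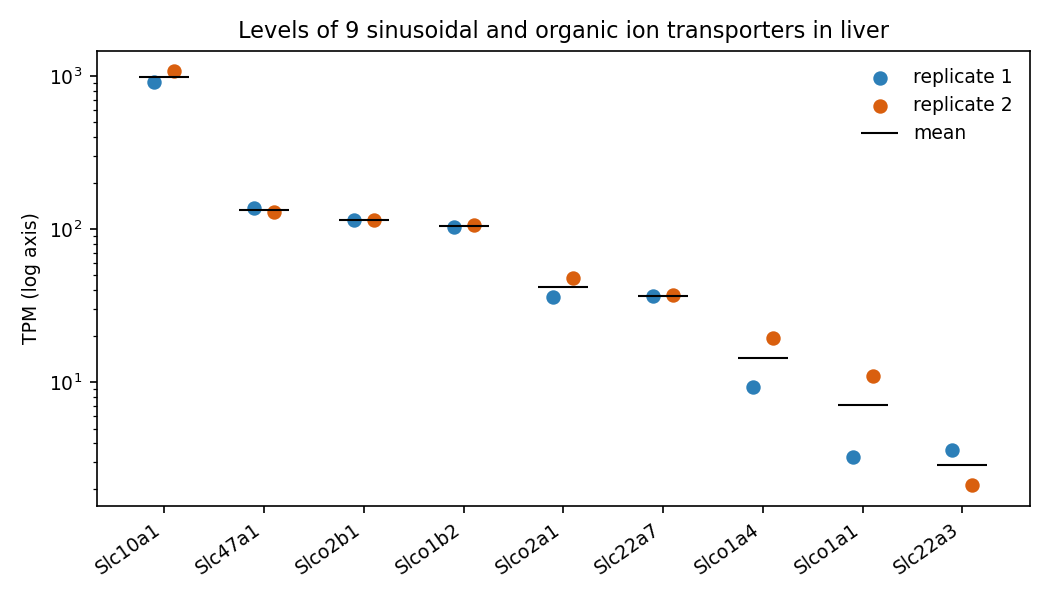
TPM of each gene (log axis) in replicate 1 (blue) and replicate 2 (orange), with the mean of both as a black line. Slc10a1 stands near 1000 TPM, 3 genes lie between 104 and 137 TPM, and the points of Slco1a4, Slco1a1 and Slc22a3 are farthest apart.

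The genes outside the Slco1 cluster lie apart on 5 chromosomes (GRCm38). Slc10a1 spans positions 80953183 to 80968705 of chromosome 12, Slc47a1 61343401 to 61378345 of chromosome 11 and Slco2b1 99657804 to 99711340 of chromosome 7, all on the minus strand. Slco2a1 spans 102988712 to 103096002 of chromosome 9 on the plus strand. Slc22a3, 12418960 to 12507704, and Slc22a7, 46432183 to 46438457, are both on the minus strand of chromosome 17. Plg, encoding plasminogen and measured at 1140.87 and 1207.41 TPM, overlaps the Slc22a3 gene by 426 bases on the other strand, but overlaps the quantified Slc22a3 model by 0 bases. The antisense gene Gm15635 overlaps Slco2b1 and was at 0.17 and 0.16 TPM.

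Read counts set the precision of these levels. Slc10a1 had 66008 and 78971 reads, whose counting error is 0.389% and 0.356%, and Slc22a3 had 586 and 348 reads, with 4.13% and 5.36%. The deposited posterior standard deviation of the count, a measure of reads that could belong to several genes, was 0 in both libraries for 7 of the 9 genes. For Slco1a4 and Slco1a1 it was 0 in replicate 1 and 0.48 reads in replicate 2. The estimated counts of those genes were 1248 and 521 in replicate 1, and 2702.62 and 1745.38 in replicate 2. Close to all of their reads were thus assigned to 1 gene.

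Every member differed between the libraries by more than counting error after TMM scaling (exact conditional binomial test, two-sided, Benjamini-Hochberg adjusted over 14533 genes, threshold 0.05). That count has to be read against the background, since 57.6% of all genes tested passed the same test. Of the members 4 were higher in replicate 2 (28.6% of all genes) and 5 higher in replicate 1 (29.0%). The members' median log2 ratio of replicate 2 over replicate 1 was -0.11, beside 0.00 over all genes. The test compares 2 libraries and not conditions, and spread between replicates alone can pass it. No test that includes replicate spread is possible with 1 library on each side.

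The largest differences were in Slco1a1 and Slco1a4. Slco1a1 had 521 reads in replicate 1 and 1745 in replicate 2, a log2 ratio of 1.60 (95% counting interval 1.46 to 1.74, adjusted p = 1.45e-126 by the exact test). It was the only member past 2-fold with TMM scaling, as were 5.40% of all genes higher in replicate 2. No member was past 2-fold higher in replicate 1, where 2.43% of all genes were. Of genes at mean TPM 10 or more, 0.675% had a ratio as large in either direction, and of genes at 1 TPM or more, 1.26%. Slco1a4 had a log2 ratio of 0.97 (0.87 to 1.07, adjusted p = 3.91e-90 by the exact test), a size reached by 2.28% of genes at TPM 10 or more. It passed 2-fold with total reads, at 1.09, and with spike-in totals, at 1.12. Slc22a3 was higher in replicate 1, with a log2 ratio of -0.90 (-1.09 to -0.70, adjusted p = 7.90e-20 by the exact test). A ratio as large was seen in 5.23% of genes at 1 TPM or more.

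The more abundant members differed less. Slco2a1 had a log2 ratio of 0.24 (0.20 to 0.29) and Slc47a1 of -0.37 (-0.41 to -0.33), sizes reached by 39.9% and 21.2% of genes at TPM 10 or more. Slc10a1 had a log2 ratio of 0.11 (0.10 to 0.13, adjusted p = 1.30e-49 by the exact test), a size reached by 68.6% of those genes. The median absolute log2 ratio of genes at TPM 10 or more was 0.19 with TMM. The sizes of these 3 ratios moved with the scaling. Slc10a1 was at 0.24 with total reads and 0.27 with spike-ins, Slco2a1 at 0.37 and 0.39, and Slc47a1 at -0.25 and -0.22. The signs of the ratios of Slco1b2 and Slc22a7 depended on the scaling. They were -0.11 and -0.11 with TMM (adjusted p = 3.90e-11 and 0.0047 by the exact test), 0.011 and 0.013 with total reads (neither called), and 0.040 and 0.042 with spike-in totals, where Slco1b2 was called higher in replicate 2. Slco2b1 was at -0.16 with TMM and at -0.01 with spike-in totals, not called. Slc10a1, Slco1a1, Slco1a4 and Slco2a1 were called higher in replicate 2, and Slc47a1 and Slc22a3 higher in replicate 1, under all 4 scalings tried. Total reads and spike-in totals move the median of all genes to 0.13 and 0.15, and the share of calls higher in replicate 2 from 49.7% to 69.3% and 73.7%.

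**Figure D2:**
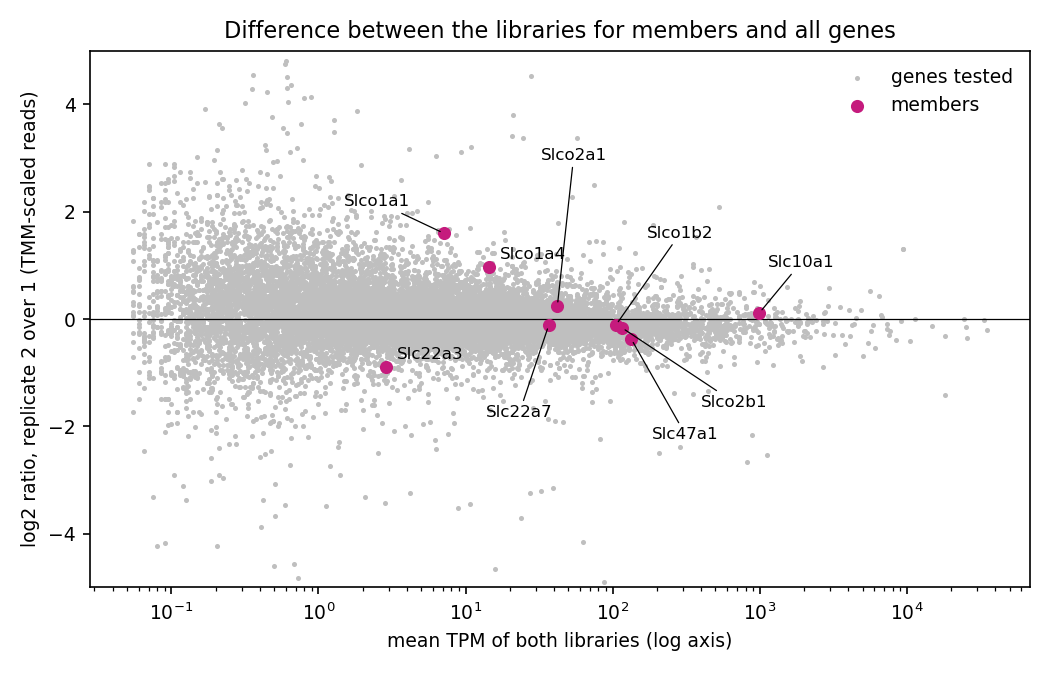
Log2 ratio of TMM-scaled reads, replicate 2 over replicate 1, against mean TPM (log axis) for 14438 genes tested (grey) and the 9 members (magenta). Not drawn are 95 others, with a log2 ratio beyond 5 in size or a mean of 0.05 TPM or less. Slco1a1 and Slco1a4 lie toward the upper edge of the cloud, Slc22a3 toward the lower edge, and the other 6 nearer its middle.

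Slco1a1 is known to be higher in male and Slco1a4 higher in female mouse liver, and both were higher in replicate 2. Of 10 genes known to be male-biased 9 were higher in replicate 2 and 1 was higher in replicate 1, with summed levels of 332.01 and 588.99 TPM in replicates 1 and 2. Nudt7, a peroxisomal hydrolase gene, and Cyp2d9, a cytochrome P450 gene, were the most abundant, at 195.64 and 251.96 TPM and at 85.60 and 135.22 TPM. The largest log2 ratios of that list were those of Ugt2b38, 4.31, and Hsd3b5, 3.21, a glucuronosyltransferase and a steroid dehydrogenase gene, and Elovl3, a fatty acid elongase gene, had -0.67. Of 17 female-biased genes 1 was higher in replicate 2 and 15 were higher in replicate 1, with summed levels of 4036.2 and 2081.4 TPM. With spike-in totals 2 and 14 were called. A1bg, encoding a plasma glycoprotein, was at 1879.4 and 354.9 TPM, and Cyp2c69, a cytochrome P450 gene, at 481.89 and 368.91 TPM. Cyp3a16 and Cyp3a41b had log2 ratios of -5.10 and -4.66, and Cyp2b9 had 0.91. The counts of Cyp3a41b were fractional, 2777.3 and 121.22, so its reads may be split among close copies. The medians of the male-biased and female-biased lists were 1.48 and -0.92. Slco1a4 thus had the direction of the male-biased list and not that of the female-biased list. The part of these list differences in the values of Slco1a1 and Slco1a4 was not tested.

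Slco1a1, Slco1a4 and Slco1b2 lie in 1 cluster on chromosome 6 (GRCm38), where 9 protein-coding genes were found over 798.61 kb. Slco1b2 spans positions 141629518 to 141686646 on the plus strand, Slco1a4 141805440 to 141856199 and Slco1a1 141907282 to 141946962 on the minus strand. Of the 9 genes 4 had 0 reads in both libraries, which allows up to 3 reads each: Gm5724, Slco1a6, Slco1a5 and the islet hormone gene Iapp. Slco1c1, the thyroid hormone carrier of brain, had 2 and 0 reads, and Gm6614 had 0 and 2. The 3 members were thus the only genes of the cluster above 2 reads. Their order along the chromosome, Slco1b2, Slco1a4 and Slco1a1, was also the order of their levels in both libraries. Slco1b2 exceeded Slco1a1 by 31.8 times in replicate 1 and 9.65 times in replicate 2, and Slco1a4 exceeded Slco1a1 by 2.83 and 1.78 times in TPM.

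**Figure D3:**
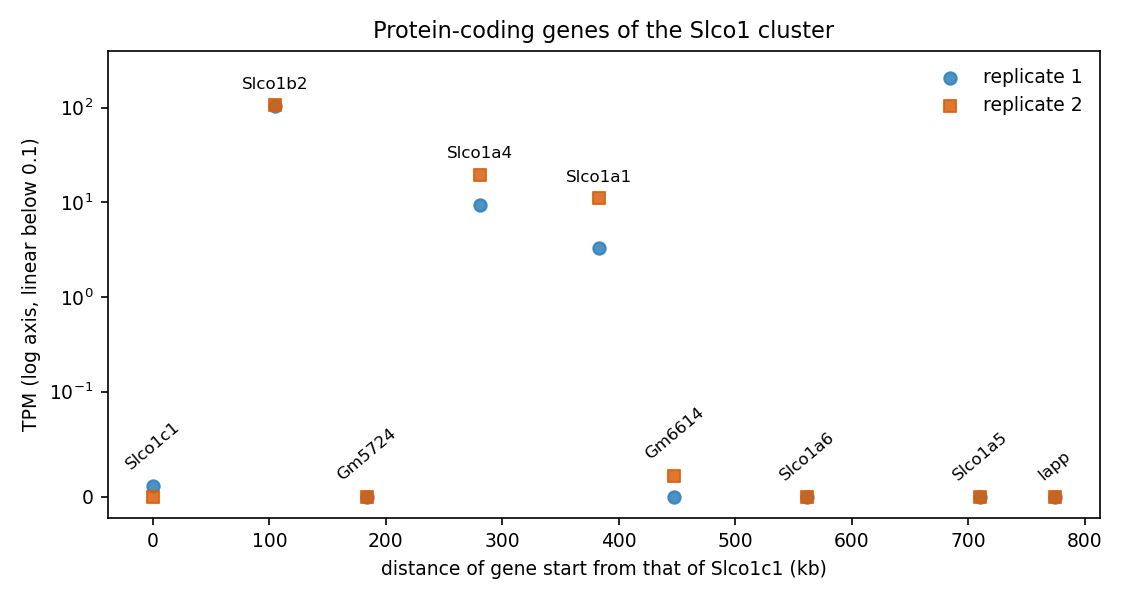
TPM (log axis, linear below 0.1) of the 9 protein-coding genes of the Slco1 cluster against the distance of their start from that of Slco1c1 in kb. Slco1b2, Slco1a4 and Slco1a1 stand above 1 TPM in both libraries, and the other 6 genes lie at or next to 0.

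The coding sequences of Slco1a1 and Slco1a4 are close copies. Both are 2010 bases long and 86.7% identical, against 60.3% for Slco1a1 and Slco1b2. Their longest identical stretch is 132 bases, coding positions 672 to 803, which joins exons 6 and 7 of Slco1a1-201 and Slco1a4-201. It lies within chr6:141925636-141932442 for Slco1a1 and chr6:141825086-141826258 for Slco1a4, each span including an intron, both on the minus strand. It is printed because a read of 76 bases inside it cannot tell the genes apart; 57 such windows exist in the 2 coding sequences, and none between Slco1a1 and Slco1b2. The stretch, from the GRCm38 transcripts, reads as follows.
Slco1a1 and Slco1a4, shared: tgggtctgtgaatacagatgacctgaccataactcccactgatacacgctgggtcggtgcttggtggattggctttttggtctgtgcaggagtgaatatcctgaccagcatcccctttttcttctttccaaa
Slco1a5 and Slco1a6, at 0 reads here, are further copies. In coding bases Slco1a5 is 88.0% identical to Slco1a1 and 89.4% to Slco1a4, and Slco1a6 is 83.9% identical to Slco1a1 and 85.03% to Slco1a4. The longest run that Slco1a6 shares with either is 96 bases. Slco1a5 shares 131 bases with Slco1a1 and 139 bases with Slco1a4. Both of its runs start at coding position 673, so most of the printed stretch is also found in Slco1a5. The libraries were read in pairs, and the deposited posterior standard deviation of 0.48 reads given above shows how few reads remained shared.

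The sequence upstream of the starts also differs between the cluster's 3 members. The 250 bases before 1 RefSeq start (GRCm38.p6) of each are shown. Slco1b2 is at chr6:141629268-141629517 on the plus strand, Slco1a4 at chr6:141856221-141856470 and Slco1a1 at chr6:141946963-141947212 on the minus strand. Each is printed 5′ to 3′, so the start follows its last base. Capitals mark matches, on either strand, to 3 motifs: AGGTCA for nuclear receptor half-sites, TTCNNNGAA for STAT factors and TATAAA for the TATA box.
Slco1b2: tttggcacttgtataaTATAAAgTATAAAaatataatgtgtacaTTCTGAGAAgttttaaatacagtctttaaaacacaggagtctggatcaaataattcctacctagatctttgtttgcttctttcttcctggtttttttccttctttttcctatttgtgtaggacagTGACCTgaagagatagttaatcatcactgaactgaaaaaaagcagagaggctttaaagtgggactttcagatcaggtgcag
Slco1a4: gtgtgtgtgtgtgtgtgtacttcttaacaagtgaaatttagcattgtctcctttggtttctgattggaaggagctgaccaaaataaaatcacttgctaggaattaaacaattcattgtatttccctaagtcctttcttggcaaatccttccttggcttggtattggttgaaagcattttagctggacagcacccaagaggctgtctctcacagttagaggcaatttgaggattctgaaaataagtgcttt
Slco1a1: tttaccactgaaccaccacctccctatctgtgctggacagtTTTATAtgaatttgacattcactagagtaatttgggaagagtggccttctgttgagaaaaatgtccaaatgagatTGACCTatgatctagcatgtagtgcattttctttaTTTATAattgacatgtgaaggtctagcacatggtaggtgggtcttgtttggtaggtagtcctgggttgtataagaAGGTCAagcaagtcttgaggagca
The Slco1b2 window holds TGACCT, the reverse complement of AGGTCA, 81 bases before the start, TTCTGAGAA 206 bases before it, and 2 TATAAA matches farther upstream. The Slco1a1 window holds 2 matches to AGGTCA, found in 4607 of 32851 windows of the same length, and 2 to TATAAA, found in 12.4% of windows. The Slco1a4 window holds none of the 3 motifs. It precedes a start at 141856220, near those of the models Slco1a4-202 and Slco1a4-203 (141856199 and 141856171). Slco1a4-201 starts downstream at 141845468, and no window is shown for it. A match describes letters and not a bound site. The relation of these matches to the levels of the 3 genes was not tested.

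Transcript models added detail for 6 members. The tables list 26 models for the 9 genes, with 1 model each for Slc10a1, Slc22a3 and Slc22a7, and the same model led in both libraries for all 9. Slco2b1 is transcribed from several starts on chromosome 7, minus strand. Its model Slco2b1-202, starting at position 99695809, held 85.43% and 91.22% of the gene's TPM, and Slco2b1-201, starting upstream at 99711340, held 7.92% and 1.34%. The estimated reads of Slco2b1-201 were 1869 and 316.28, with deposited posterior standard deviations of 231.86 and 112.34 reads, so the estimates lie farther apart than either deviation. The reads of the gene as a whole had a deviation of 0. Slco2b1-203, with a start between them, held 0.43% and 0.63%. The 250 bases before the leading and the upstream start are shown (RefSeq, GRCm38.p6, chr7:99695810-99696059 and chr7:99711341-99711590, minus strand), with capitals as above.
Slco2b1-202: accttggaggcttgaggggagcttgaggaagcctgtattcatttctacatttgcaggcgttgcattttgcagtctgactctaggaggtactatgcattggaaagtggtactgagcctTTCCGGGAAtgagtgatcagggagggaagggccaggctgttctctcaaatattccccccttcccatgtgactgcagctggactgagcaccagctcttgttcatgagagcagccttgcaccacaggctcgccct
Slco2b1-201: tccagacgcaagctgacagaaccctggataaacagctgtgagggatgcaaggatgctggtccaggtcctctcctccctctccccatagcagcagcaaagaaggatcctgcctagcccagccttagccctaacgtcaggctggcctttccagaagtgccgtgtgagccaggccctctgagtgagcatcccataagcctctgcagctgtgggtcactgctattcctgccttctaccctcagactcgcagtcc
The window of the leading start holds the STAT palindrome TTCCGGGAA, a motif found in 7.02% of windows, 133 bases before the start. The upstream window holds none of the 3 motifs. The relation of these letters to the shares of the models was not tested.

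Slc47a1 was the member whose models shifted most. The full coding model Slc47a1-201 held 60.08% of the gene's TPM in replicate 1 and 45.81% in replicate 2. The noncoding model Slc47a1-203, only 567 bases long, held 16.13% and 27.58%, and Slc47a1-202, annotated for nonsense-mediated decay, 6.09% and 10.32%. In reads, Slc47a1-203 took 3.36% and 6.58%. The average effective length of the gene was 1817 and 1630 bases. Slc47a1 had 12155 and 10407 reads, a log2 ratio of -0.37 after TMM scaling, while its TPM ratio was -0.08 on the log2 scale.

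Slco2a1 had most of its TPM divided between 2 models. Slco2a1-203, annotated for nonsense-mediated decay and 2196 bases long, held 54.22% and 56.23% of TPM but 26.4% and 27.9% of reads. Slco2a1-201, annotated as protein-coding and 7122 bases long, held 41.87% and 40.52% of TPM and 70.3% and 69.3% of reads. Its protein is known from endothelium, and 11 of 12 endothelial and 10 of 10 Kupffer cell markers were higher in replicate 2, as Slco2a1 was. Eng and Clec4g, an endothelial receptor and lectin, were the most abundant of the first list, at 46.11 and 61.03 TPM and at 40.96 and 49.63 TPM. C1qc and C1qb, complement genes of Kupffer cells, were at 55.53 and 89.82 TPM and at 47.51 and 76.41 TPM. The largest log2 ratios were 0.85 for Fcgr2b and 0.68 for Lyve1, and 1.23 for Marco and 1.17 for Adgre1. The median log2 ratios of these lists were 0.43 and 0.71, beside 0.24 for Slco2a1. Their part in the level of Slco2a1 was not tested.

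In the Slco1 cluster the models kept the same leader in both libraries. Slco1b2-201 held 98.21% and 97.63% of its gene's TPM. Slco1a1-201 held 81.71% and 87.37%, and Slco1a1-202 held 14.54% and 8.65%. Slco1a4-203 held 56.12% and 54.50%, and Slco1a4-201, which starts downstream, 32.17% and 37.94%.

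**Figure D4:**
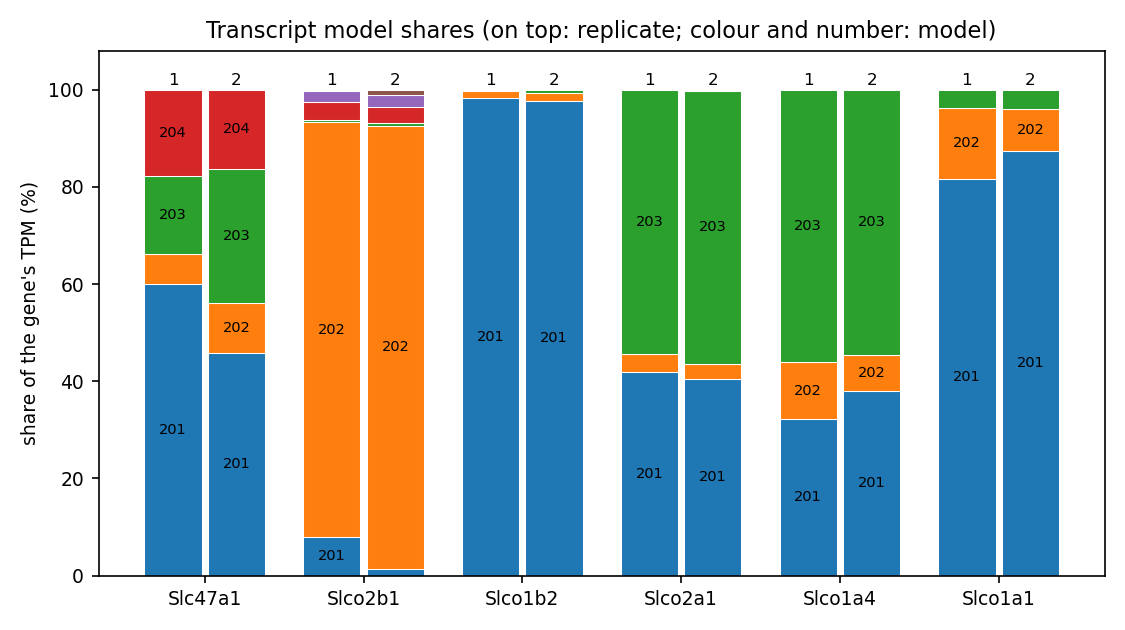
Share of each gene's TPM (%) by transcript model for the 6 members with several models, replicate 1 left and replicate 2 right; colours and numbers give the model, and models under 7% carry no number. Slc47a1-203 is wider in replicate 2, and Slco2b1-201 is wider in replicate 1.

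Relatives of the members were measured too. Slc22a2, the kidney cation carrier, lies next to Slc22a3 on chromosome 17 and had 2.06 and 0 reads. Slc47a2, which adjoins Slc47a1 on chromosome 11, had 0 and 2 reads. Slc22a18, an abundant relative, was at 318.45 and 296.23 TPM. Of 24 further Slc22 and Slc47 genes 13 were tested, 3 higher in replicate 2 and 5 higher in replicate 1 with TMM, and 6 and 4 with total reads. In that list Slc22a17 and Slc22a28 had the largest log2 ratios toward replicate 2, 0.84 and 0.71, and Slc22a15 and Slc22a5 had log2 ratios of -1.04 and -0.30. Slc22a28 has close copies, among which reads may be split.

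The Slc10 and Slco relatives were mostly low. Of 6 other Slc10 genes 4 were tested, with 2 higher in replicate 2 and 1 higher in replicate 1. Slc10a2, the ileal bile acid carrier also found in bile ducts, was at 8.5 and 21.79 TPM, against which Slc10a1 was 107 and 49.3 times higher. Slc10a5 was at 18.16 and 16.24 TPM and Slc10a3 had a log2 ratio of 0.36. Of the bile duct markers Spp1 and Krt19, an osteopontin and a keratin gene, were at 16.19 and 14.41 TPM and at 2.18 and 2.09 TPM. Among the 5 markers tested, 0 were called higher in replicate 2, 2 were higher in replicate 1 and 3 were not called. The part of bile duct cells in the level of Slc10a2 was not tested. Of 10 other Slco genes 2 were tested and 6 had 0 reads in both libraries. Slco3a1 was at 3.86 and 3.69 TPM, with a log2 ratio of reads of 0.29, and Slco4a1 at 0.38 and 0.36 TPM.

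Export pumps stood below Slc10a1 in level. Abcb11, the bile salt export pump, was at 175.21 and 194.13 TPM, so Slc10a1 was 5.20 and 5.54 times higher (5.37 ± 0.237, SD, n = 2). Abcc2, which exports conjugated anions, was at 191.21 and 255.17 TPM, but its log2 ratio of reads with TMM was 0.0019, not called. The sterol pump genes Abcg5 and Abcg8 were at 83.87 and 101.92 TPM and at 76.99 and 99.18 TPM, and the phospholipid floppase gene Abcb4 at 46.03 and 45.91 TPM. Abcg2, Atp8b1 and Abcb1a were at 12.07 and 12.52, 7.0 and 6.7, and 1.74 and 1.90 TPM. Abcb1b was at 0.94 and 0.08 TPM, a log2 ratio of -3.67. Its estimated reads were 189.97 and 15.98, and those of its near copy Abcb1a 274.03 and 334.02, all close to whole numbers. How many reads could belong to either gene was not tested. Of the 9 canalicular genes 3 were higher in replicate 2 and 3 in replicate 1 with TMM, and 5 and 1 with total reads.

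On the blood side, Abcc3, an efflux pump of glucuronides and bile acids, was at 209.79 and 250.89 TPM. Slc10a1 was 4.34 and 4.28 times higher (4.31 ± 0.0422, SD, n = 2). Abcc6, whose product releases ATP, was at 88.88 and 164.21 TPM. Abcc5 and Abcc4, nucleotide and bile acid pumps, were at 2.92 and 5.78 TPM and at 0.87 and 0.48 TPM. Slc51b had 3 and 2 reads and Slc51a had 0 reads in both libraries. Of 4 tested genes 3 were higher in replicate 2, Abcc3, Abcc5 and Abcc6, and Abcc4 was higher in replicate 1, under all 4 scalings.

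**Figure D5:**
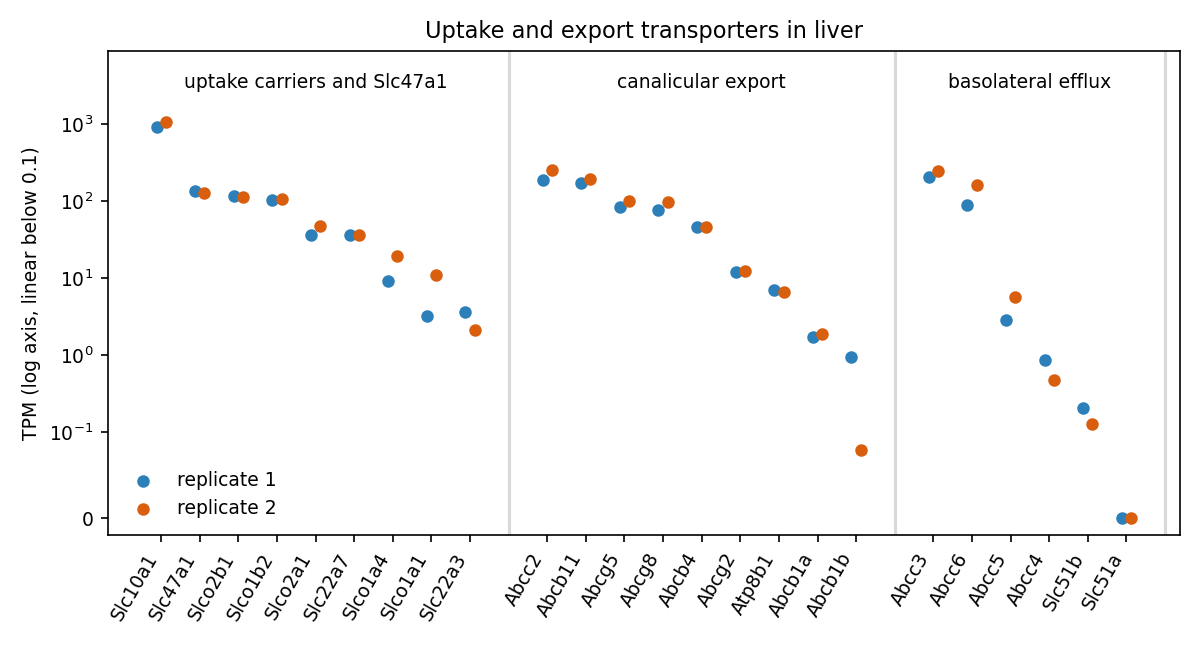
TPM (log axis, linear below 0.1) in replicate 1 (blue) and replicate 2 (orange) of the 9 members, 9 canalicular export genes and 6 basolateral efflux genes. Slc10a1 stands above every export gene, and Slc51a is at 0.

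Regulators known to act on these carriers were all present above 1 TPM. Of 14 genes 3 were higher in replicate 2 and 9 higher in replicate 1 with TMM, and 6 and 6 with spike-in totals. The median log2 ratio was -0.19. Cebpa and Rxra, a liver transcription factor and the partner of many nuclear receptors, were the most abundant, at 324.98 and 298.48 TPM and at 254.30 and 269.69 TPM. Nr0b2, a corepressor that bile acids induce through the receptor encoded by Nr1h4, was at 137.45 and 257.85 TPM, a log2 ratio of 0.79, and Foxa2 had a ratio of 0.48. Hnf4a, encoding a nuclear receptor of hepatocytes, had a log2 ratio of -0.36. Slc10a1, which that corepressor is known to lower, had a log2 ratio of 0.11. The relation was not tested, since 2 libraries give no correlation.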

How the data were processed

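Polyadenylated RNA of mouse liver was measured in 2 libraries, read as stranded pairs of 76 bases per the labels. The authors quantified genes and transcripts on mm10 with GENCODE M4, per the file headers and notes; the sources used here name no tool or aligner and do not say if strand was used. Estimated counts, as deposited, are fractional where reads match several genes, the deposited TPM values are scaled per library over all entries with spike-ins, the percent per transcript was deposited by the authors as the share of its gene's TPM, and the posterior standard deviation is a deposited score per gene. Spike-ins held 1094063 and 1088802 reads and stayed out of scaling except as an alternative.

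Symbols, coordinates and exons came from GENCODE M21 on GRCm38, matched by stable identifier (42462 of 43346 genes), and all 26 transcript models of the members matched. Promoters were taken from RefSeq (GRCm38.p6): 7 of 9 members matched, and Slc22a7 and Slc47a1 did not. Coding identity came from global alignment in Biopython 1.88. Proteins were not used here.

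Estimated counts were rounded, scaled by TMM (edgeR 4.0.16) and compared between the libraries with an exact conditional binomial test (SciPy 1.17.1) for genes with at least 20 reads in both together, adjusted over all of them at 0.05, with log2 ratios at a prior count of 0.5 reads. The test was also run on simulated counts with counting error alone, which cannot show how it behaves under replicate spread. Members, lists and tests were chosen with earlier results of these data known. Genes named are the members, the 2 most abundant of each list, all canalicular and basolateral genes and the 2 called genes of largest ratio each way, and a few beyond that rule (Nr1h4 and the cluster neighbours) after their values were seen. Some genes that the rule selects are left out. A zero count allows up to 3 reads. Intervals and limits describe counting error alone and hold no replicate spread. PCR copies were not marked, so the intervals may be too narrow even for counting error. The junction and contig files on mm9 were not used here. Alternatives are in the closing section.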

Additional observations from a re-analysis of the deposited data

How the results depend on the processing

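The number of genes called lay between 7699 of 12086 tested (at least 100 reads) and 8701 of 14533 (spike-in totals), beside 8370 of 14533. It was 8535 with total reads and 8378 with DESeq2 1.42.0 size factors, both of 14533. Without a filter it was 8492 of 19412, and with posterior mean counts 8381 of 14565. The genes tested changed with the filter, so the share called moved more than these counts do. Of the 9 members 7 were called under either total-read or spike-in scaling, and 9 under the other settings. The ratios of 3 members lost their call or sign. Slco1b2 turned to 0.011 when scaled by total reads and to 0.040 by spike-ins, Slc22a7 to 0.013 and 0.042, and Slco2b1 went to -0.01 by spike-ins. As a ratio of TPM, Slco1b2 and Slc22a7 also turned, to 0.024 and 0.016 on the log2 scale. The scalings differ by construction in what they hold equal between the libraries, and which is nearer the RNA content of the tissue was not tested. The share of genes with ratios as large as a member's, over genes at 1 TPM or more, was added after seeing the data. The summed level was 1543.0 TPM without replicate 1 and 1357.3 without replicate 2. No paired analysis was possible because there is 1 group. Depth limits the genes at 0 reads, where up to 3 reads are allowed, more than the members.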

Other observations

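The carriers act in hepatocytes that differ along the lobule, and markers of both zones were tested. Of 10 pericentral genes 1 was higher in replicate 2 and 9 higher in replicate 1 with TMM, and 3 and 6 with spike-in totals. Cyp2e1 and Oat, a cytochrome P450 and ornithine aminotransferase, were at 2075.9 and 2174.5 TPM and at 1523.1 and 919.04 TPM. The log2 ratios were 0.39 for Tbx3, the one called upward, and -0.86 for Oat and -0.81 for Rhbg, the largest downward. Of 8 periportal genes 3 were higher in replicate 2 and 5 higher in replicate 1 under all 4 scalings. Ass1 and Gls2, of the urea cycle and glutamine breakdown, were at 3343.4 and 2984.6 TPM and at 2448.9 and 1449.4 TPM. Pck1, of gluconeogenesis, had a log2 ratio of -1.39, Gls2 of -0.78, Cdh1, encoding E-cadherin, of 0.98, and Cyp2f2 of 0.24.

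Of 10 hepatocyte markers 1 was higher in replicate 2 and 8 higher in replicate 1 with TMM, and 5 and 5 with spike-in totals. The log2 ratios were -0.79 for Tat, -0.40 for Ttr and 0.05 for Apoa1. Of 10 stellate cell markers 4 were higher in replicate 2 and 2 higher in replicate 1, with Dcn and Colec11, a matrix proteoglycan and a collectin, at 63.90 and 76.34 TPM and at 22.66 and 24.47 TPM. Lrat, the retinol-esterifying enzyme of these cells, had a log2 ratio of -1.30, Rgs5 of -0.19, Reln of 0.33 and Pdgfrb of 0.16. Of 5 bile duct markers tested 2, Spp1 and Sox9, were higher in replicate 1 under all 4 scalings, with log2 ratios of -0.32 and -0.54. How these lists bear on the carriers was not tested.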
